A study of Mus musculus with 6 samples.

Results

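The genes described here are 8 endothelial genes and Mmp10, a metalloproteinase gene that HDAC7 is known to keep silent in blood vessels, measured in sorted mouse pro-B cells. The endothelial genes are Robo4, Cdh5, Pecam1, Kdr, Tek, Esam, Eng and Sema3g. They were chosen by name, with differences between the groups of these same arrays already known, so their differences are given as a description and were not tested. All 9 had a probe set annotated with that symbol alone, out of 17097 genes represented. Together they had 11 probe sets, since Cdh5 and Eng had 2 each. Where a gene had several, the one brightest on average was used and the other is given beside it.

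The study compared pro-B cells, which are early precursors of B cells, from wild-type mice (3 arrays) and from mice labelled HDAC7 deficient (3 arrays). The series' design text calls the mice conditional. The sources used here do not give the Cre driver, the exons removed, or the animals' age and sex. Cells were sorted as B220+CD43+IgM-. Values are log2 signals per probe set, deposited by the authors, and a difference of 1 is a factor of 2. Levels of different probe sets cannot be set against each other, so each gene is compared with itself across arrays. In RNA from a cell population, fewer cells of a type and less RNA per cell cannot be told apart.

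Endothelial cells line blood vessels and lymph vessels. They are held together by VE-cadherin (Cdh5), PECAM1 and ESAM, and they read growth and guidance cues through receptors such as VEGFR2 (Kdr), TIE2 (Tek), endoglin (Eng) and ROBO4. Several of these proteins are not private to vessels: PECAM1 is found on leukocytes and platelets, and TIE2, ESAM and endoglin on blood stem cells. HDAC7 is a class IIa histone deacetylase that binds MEF2 transcription factors. In endothelium its loss is known to release Mmp10, which encodes the matrix-degrading protease stromelysin-2, and to weaken vessels.

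Because MEF2 is the known link between HDAC7 and Mmp10, the stretch just before the start of Mmp10 is shown, with that of Sema3g, the gene with the largest lower difference here, for contrast. Both are the 250 bases before the annotated start in RefSeq, build GRCm38.p6, plus strand, written 5′ to 3′: chr9:7502092-7502341 for Mmp10 and chr14:31217623-31217872 for Sema3g. Capitals mark matches, on either strand, to the MEF2 consensus, the AP-1 site TGANTCA, the TATA box TATAAA and the ETS core GGAA.
Mmp10: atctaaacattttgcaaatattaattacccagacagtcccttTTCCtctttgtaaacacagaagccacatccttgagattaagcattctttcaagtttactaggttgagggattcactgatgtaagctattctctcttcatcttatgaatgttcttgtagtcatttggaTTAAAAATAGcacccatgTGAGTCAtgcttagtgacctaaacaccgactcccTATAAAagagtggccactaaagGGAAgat
Sema3g: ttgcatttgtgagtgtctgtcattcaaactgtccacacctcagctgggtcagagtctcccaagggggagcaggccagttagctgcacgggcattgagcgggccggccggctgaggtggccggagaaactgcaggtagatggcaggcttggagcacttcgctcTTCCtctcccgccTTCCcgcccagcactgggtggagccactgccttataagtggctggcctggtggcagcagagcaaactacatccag
The Mmp10 stretch held a MEF2 consensus match (TTAAAAATAG, from 81 to 72 bases before the start), an AP-1 match (TGAGTCA, 63 to 57 bases before) and a TATA box (29 to 24 bases before). None of these matches overlap. Of all 32851 promoter windows of this length, 2.92% held the MEF2 consensus, 6.75% the AP-1 site and 12.4% the TATA box. Windows were found for 6 of the 9 genes (Mmp10, Sema3g, Robo4, Eng, Tek and Kdr). Those of Robo4, Tek and Kdr lay wholly or partly inside the annotated gene, so they are not all sequence before it. Mmp10 was the only one of these 6 with any of those 3 motifs. The ETS core, bound by a factor family with a central place in endothelial gene control, was in all 6 windows, but it was also in 93.4% of all windows. A match describes letters in a window and is neither a binding site nor a cause.

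Mmp10 did not stand higher on the arrays labelled HDAC7 deficient. Its log2 values were 5.60, 5.32 and 6.23 in wild-type replicates 1 to 3 and 5.34, 5.36 and 5.51 in HDAC7-deficient replicates 1 to 3. The single array above the rest was wild-type replicate 3, and the remaining 5 arrays lay within 5.32 to 5.60, so the groups overlapped. The means were 5.72 ± 0.47 and 5.40 ± 0.10 (SD, n = 3 each), a difference of -0.31 ± 0.26 (limma SE), or -0.06 ± 0.16 with wild-type replicate 3 left out. Control probe sets that match no mouse transcript (those with 10 to 15 G or C bases) read 3.39 to 4.16 on these arrays. Mmp10 lay above that range on every array, although such controls do not set a detection limit for a particular probe set.

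Hdac7 itself read 9.06, 9.48 and 7.31 in wild type and 9.95, 9.54 and 9.27 in HDAC7 deficient, so the arrays labelled deficient were not the lower ones. The sources used here do not say where its probes lie relative to the deleted part, and the labels are therefore unchecked by this gene. The array least like the rest was wild-type replicate 3. Its correlations with the other 5 over all probe sets were 0.70 to 0.82, and its Actb probe sets, 3′ minus middle, differed by 1.69, against 0.16 to 0.26 on the others. It read weak genes higher and strong genes lower than its companions. In the lowest and second quartiles of mean signal over all 17097 genes its median difference from the mean of wild-type replicates 1 and 2 was 0.51 and 0.54, in the third -0.31 and in the highest -1.36. The arrays also fell into 2 sets by hybridisation spike-in controls, with means of 8.64 to 9.17 (wild-type replicates 1 and 2, HDAC7-deficient replicate 1) and 9.99 to 10.78 (wild-type replicate 3, HDAC7-deficient replicates 2 and 3). Xist, the RNA of the inactive X chromosome, followed the same division, at 4.87 to 5.38 on the first set. On the second it read 8.51 on wild-type replicate 3 and 11.40 and 11.27 on HDAC7-deficient replicates 2 and 3. A sex difference and a hybridisation difference therefore cannot be told apart. Differences are therefore also given without wild-type replicate 3 and within each set. Wild-type replicate 3 was the only wild-type array of the high set, and HDAC7-deficient replicate 1 the only deficient array of the low set. These readings share arrays and are not independent of each other.

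**Figure D1:**
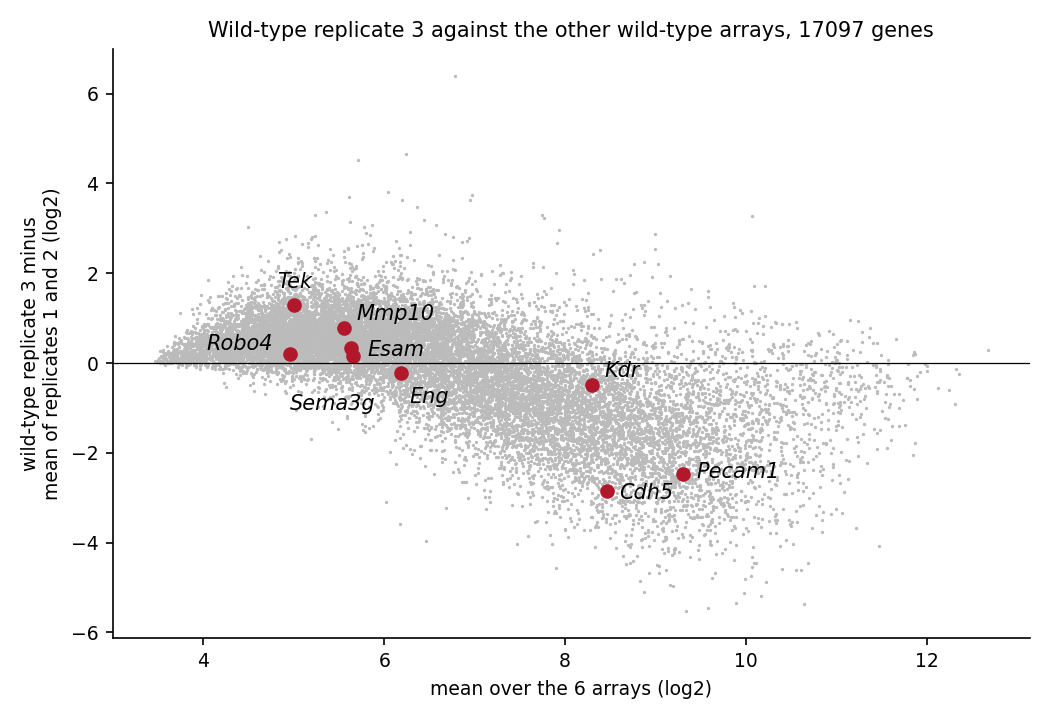
Each grey point is a gene: its mean over the 6 arrays (log2, horizontal) against wild-type replicate 3 minus the mean of wild-type replicates 1 and 2 (log2, vertical). The 9 genes are in red; Cdh5 (-2.84) and Pecam1 (-2.48) lie in the downward cloud of strong genes, Tek (1.29) and Mmp10 (0.77) in the upward cloud of weak ones.

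For 8 of the 9 genes wild-type replicate 3 lay on the side usual for their strength of signal, above the mean of its companions for 5 weaker genes and below it for 3 stronger ones. Eng, in the second quartile, did not, at -0.23. Wild-type replicate 3 was the highest of the 6 arrays for 4 of the 9 genes (Tek, Mmp10, Esam and Robo4) and the lowest for Cdh5 and Pecam1. The 3 genes in the top quartile of mean signal (Pecam1, Cdh5 and Kdr) were the 3 with higher means on the arrays labelled HDAC7 deficient, and the 6 in the lower 2 quartiles had lower means. Over all genes the median difference ran the same way, at -0.30, -0.38, 0.25 and 0.56 from the lowest to the highest quartile with all arrays, and -0.11, -0.18, 0.08 and 0.06 without wild-type replicate 3. The part of that array in the members' differences can be read from the values without it, given gene by gene.

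**Figure D2:**
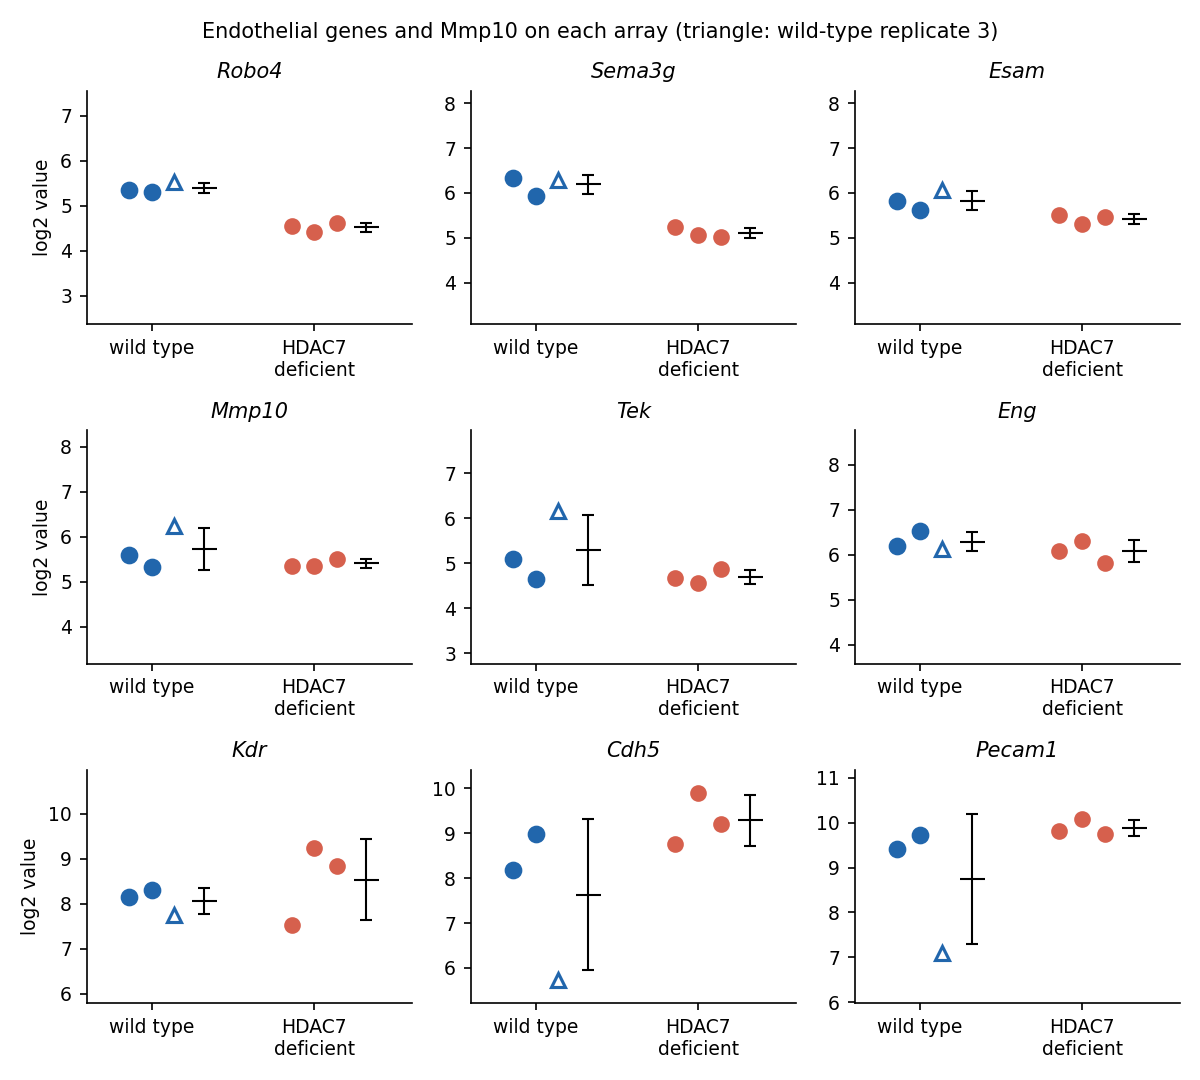
Log2 value (vertical; every panel spans the same range of 5.2) on each array, wild type in blue and HDAC7 deficient in red, with wild-type replicate 3 as an open triangle; black bars are means ± SD (n = 3). Robo4 and Sema3g separate by 0.69 and 0.70, whereas the spread of Cdh5 and Pecam1 in wild type comes from the triangle.

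Robo4, an endothelial receptor of the roundabout family that stabilises vessels, was lower on every array labelled HDAC7 deficient. It read 5.36, 5.30 and 5.52 in wild type and 4.54, 4.41 and 4.61 in HDAC7 deficient. The groups did not overlap, and the nearest arrays of the 2 groups were 0.69 apart. Means were 5.39 ± 0.11 and 4.52 ± 0.10 (SD, n = 3 each), a difference of -0.87 ± 0.14, or 1.83-fold lower. Leaving out wild-type replicate 3 gave -0.81 ± 0.13, and the 2 spike-in sets gave -0.79 (low) and -1.01 (high). This probe set lay at the 17th percentile of mean signal over all genes, so the lower values approached the weakest signals on the array.

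Sema3g, a secreted class 3 semaphorin made by arterial endothelium that signals through neuropilin-2, gave the other clear separation. Its wild-type values were 6.34, 5.94 and 6.29, and its HDAC7-deficient values 5.24, 5.07 and 5.02. Every wild-type array was above every HDAC7-deficient array, with 0.70 between the nearest. The means of 6.19 ± 0.22 and 5.11 ± 0.11 (SD, n = 3 each) differed by -1.08 ± 0.19, or 2.11-fold. Without wild-type replicate 3 the difference was -1.03 ± 0.18, and it was -0.90 within the low and -1.25 within the high spike-in set.

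Esam, a junction adhesion molecule of endothelium, platelets and stem cells, also had groups that did not overlap, but by a narrow margin. Its values were 5.82, 5.62 and 6.06 in wild type and 5.51, 5.30 and 5.47 in HDAC7 deficient. Only 0.11 lay between the nearest arrays, and the difference of -0.41 ± 0.18 became -0.29 ± 0.16 without wild-type replicate 3. Within the low and high spike-in sets it was -0.21 and -0.67.

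Pecam1, the adhesion molecule CD31, was among the stronger signals and was the only gene of the 9 higher without overlap on its brighter or only probe set. It read 9.41, 9.72 and 7.09 in wild type and 9.81, 10.07 and 9.74 in HDAC7 deficient. The nearest arrays of the 2 groups were 0.01 apart, wild-type replicate 2 at 9.72 and HDAC7-deficient replicate 3 at 9.74. The difference was 1.13 ± 0.69 with all arrays and 0.30 ± 0.17 without wild-type replicate 3, a move from 2.19-fold to 1.24-fold. Within the spike-in sets it was 0.24 (low) and 2.82 (high), the second resting on that same wild-type array.

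Cdh5, which encodes the junction protein VE-cadherin, gave a strong signal in pro-B cells that differed between its 2 probe sets. The brighter read 8.19, 8.98 and 5.74 in wild type and 8.76, 9.90 and 9.20 in HDAC7 deficient, and the groups overlapped because wild-type replicate 2 lay above HDAC7-deficient replicate 1. Its difference was 1.65 ± 0.82 with all arrays and 0.70 ± 0.36 without wild-type replicate 3. The dimmer read 5.93, 6.30 and 6.02 against 6.42, 7.12 and 6.44, without overlap. It differed by 0.58, or 0.55 without wild-type replicate 3, and that array did not stand apart in it. Both probe sets were thus higher on average, and both were highest on HDAC7-deficient replicate 2. Within the low spike-in set the brighter one differed by 0.18 alone.

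Kdr, the main receptor for the growth factor VEGF-A, varied most within the HDAC7-deficient group. Its values were 8.15, 8.30 and 7.74 in wild type and 7.53, 9.24 and 8.84 in HDAC7 deficient. HDAC7-deficient replicate 1 was thus the lowest of the 6 arrays and replicates 2 and 3 were the 2 highest. The difference was 0.48 ± 0.48, or 0.31 ± 0.45 without wild-type replicate 3, and had opposite signs within the spike-in sets, -0.69 in the low and 1.30 in the high.

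Tek, the angiopoietin receptor, and Eng, a co-receptor for BMP9 and TGF-beta, showed overlapping groups. Tek read 5.10, 4.64 and 6.16 in wild type and 4.66, 4.57 and 4.87 in HDAC7 deficient, and its difference of -0.60 ± 0.37 was -0.17 ± 0.17 without wild-type replicate 3. Within the low and high spike-in sets Tek differed by -0.21 and -1.44. Eng read 6.20, 6.53 and 6.13 against 6.09, 6.32 and 5.82 with its brighter probe set, a difference of -0.21 ± 0.22. It was -0.29 ± 0.22 without wild-type replicate 3, -0.27 and -0.07 within the low and high sets, -0.09 without wild-type replicate 2, -0.08 without HDAC7-deficient replicate 3 and -0.33 without HDAC7-deficient replicate 2. The dimmer Eng probe set read 5.61, 5.34 and 5.96 against 5.22, 5.27 and 5.21, differed by -0.41, or -0.25 without wild-type replicate 3, and did not overlap.

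**Figure D3:**
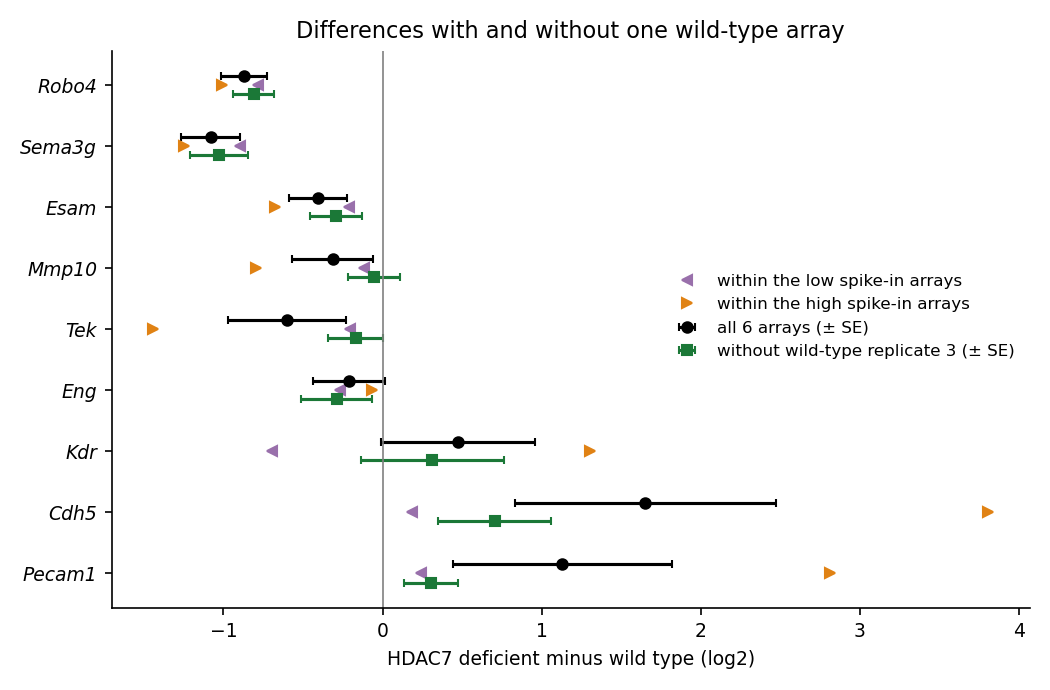
HDAC7 deficient minus wild type (log2, horizontal) for each gene: all 6 arrays and without wild-type replicate 3 (each ± limma SE), and within the low and high spike-in arrays. Robo4 and Sema3g stay between -0.79 and -1.25 in all 4 readings, Cdh5 runs from 0.18 to 3.81, and Kdr changes sign. The 4 readings share arrays and are not independent.

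In the fit across all genes (limma, Benjamini-Hochberg adjustment) 0 of 17097 genes passed an adjusted p of 0.05, a background of 0%, the smallest adjusted p being 0.326; at an unadjusted p under 0.05 there were 2165. The 9 genes were part of that fit, so none of them passed, but it is not read as a test of them. Groups did not overlap for 3 of the 9 genes in the lower direction, where 16.8% of all genes did the same, and for 1 of 9 in the higher direction, against 9.45% of all genes. Without wild-type replicate 3 the counts were again 3 and 1, against 19.0% and 11.8%. Among all genes of the 2 lowest quartiles of signal, where Robo4, Sema3g and Esam lie, 25.6% and 30.3% were lower without overlap. Nothing is read from these counts, since the genes were named with the contrast known. The median difference of the 9 genes was -0.31, against -0.03 over all genes, and -0.17 against -0.05 without wild-type replicate 3.

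Of the other endothelial genes none passed the threshold. All 32 listed genes were measured, and 25 of them had a mean signal below that of the median gene. Of the 32, 24 had lower and 8 higher means on the arrays labelled HDAC7 deficient, where 52.0% of all genes had lower means. Without overlap, 7 were lower and 1 higher, against 16.8% and 9.45% of all genes. The median difference was -0.19, or -0.12 without wild-type replicate 3. The list's mean log2 level was 5.84 to 6.26 on the wild-type arrays and 5.72 to 5.83 on the HDAC7-deficient ones. The 4 genes of the list with the smallest unadjusted p are given here. The hyaluronan receptor Lyve1 differed by -1.27 ± 0.47 and the VEGF-C receptor Flt4 by -0.95 ± 0.33. Mmrn2, an endothelial matrix protein, differed by -0.76 ± 0.30 and the sialomucin Emcn by -0.86 ± 0.40. Without wild-type replicate 3 these differences were -0.77, -0.62, -0.45 and -0.44. The endothelial genes of highest mean signal were Ramp2, a partner of the adrenomedullin receptor, Cd93 and Erg, the last of which B cell precursors also express. They differed by 0.20 ± 0.24, -0.22 ± 0.36 and 0.34 ± 0.63, and without wild-type replicate 3 by 0.14, -0.30 and -0.33, so that Erg changed sign. Cldn5, Tie1 and Plvap, also of this list, were chosen after their values were seen. Over the 6 arrays they read 4.74 to 5.16, 4.54 to 4.78 and 3.88 to 4.36, the last overlapping the range of the unmatched controls. Other genes of the list read higher, among them Icam2 at 7.34 to 8.74, Egfl7 at 6.80 to 7.56 and Flt1 at 6.14 to 7.25.

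Ligands, co-receptors and partners of the 9 genes were measured for 34 of 35 and none passed. Means were lower for 19 and higher for 15, where 52.0% of all genes had lower means. Without overlap, 7 were lower and 2 higher, against 16.8% and 9.45% of all genes. The median difference was -0.14, or -0.01 without wild-type replicate 3. Unc5b, a netrin receptor that binds ROBO4, read 6.49, 6.07 and 6.87 in wild type and 5.33, 5.67 and 5.55 in HDAC7 deficient, a difference of -0.96 ± 0.25, or -0.76 without wild-type replicate 3. Vegfa, the ligand of the receptor encoded by Kdr, went the other way, with 7.22, 7.15 and 6.90 against 7.91, 7.77 and 7.80. It differed by 0.73 ± 0.24, or 0.64 without that array, and the groups did not overlap. Plxna1, a semaphorin receptor, differed by -0.63 ± 0.22 and the junction gene F11r by -0.45 ± 0.16, both without overlap. For these 4 genes the limma adjusted p was 0.377.

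Metalloproteinases and their inhibitors were split. Of 23 listed genes other than Mmp10, 18 were measured, and none passed. Means were lower for 13 and higher for 5, where 52.0% of all genes had lower means. Without overlap, 5 were lower and 3 higher, against 16.8% and 9.45% of all genes. The median difference was -0.32, or -0.16 without wild-type replicate 3. Mmp17, a membrane-anchored protease, differed by -1.40 ± 0.29, the inhibitor Timp3 by -0.82 ± 0.22 and Mmp3, the closest relative of Mmp10, by -0.71 ± 0.28. Mmp8, the neutrophil collagenase and the protein-coding gene next to Mmp10 on the chromosome, read 7.04, 7.67 and 6.99 in wild type and 7.95, 9.11 and 8.98 in HDAC7 deficient. It differed by 1.45 ± 0.41, or 1.32 without wild-type replicate 3, whereas Mmp1a on the other side of Mmp10 differed by -0.11. Limma's adjusted p was 0.377 for Mmp17, Timp3, Mmp3 and Mmp8. Of the HDAC7 and MEF2 list 7 of 8 genes were measured and none passed. Means were higher for 6 and lower for 1, where 52.0% of all genes had lower means. The median difference was 0.77, or 0.23 without wild-type replicate 3. All but Mef2b lay in the top quartile of signal, where the median difference over all genes was 0.56, or 0.06 without wild-type replicate 3. Mef2a differed by 1.41 ± 0.90, or 0.28 without that array, and Hdac7 by 0.97 ± 0.59, or 0.31.

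Cell types that share these proteins were read from their own markers. Of the pro-B cell markers 15 of 18 were measured, and their mean log2 level was 8.49 to 9.92 on wild-type and 9.33 to 10.14 on HDAC7-deficient arrays, with the pre-B receptor gene Vpreb1 at 9.97 to 11.53. Of 12 stromal genes, 12 were lower on average (median -0.59, or -0.24 without wild-type replicate 3), and all 12 were highest on wild-type replicate 3. Their mean log2 level was 5.61, 5.17 and 6.29 in wild-type replicates 1 to 3. In HDAC7-deficient replicates 1 to 3 it was 4.97, 5.06 and 5.35. The matrix gene Sparc differed by -0.97 ± 0.42, or -0.67 without that array. Of 11 stem cell genes measured (12 listed) 10 were lower (median -0.31, or -0.12 without wild-type replicate 3). Hoxb5 differed by -1.20 ± 0.29 and Hlf by -1.12 ± 0.43, or by -0.88 and -0.69 without that array. The list's mean level was 5.96, 5.69 and 6.39 in wild type, again highest on wild-type replicate 3, against 5.50, 5.56 and 5.72. Of 10 platelet lineage genes measured (12 listed) 7 were lower (median -0.20, or -0.12 without wild-type replicate 3). Their mean level was 6.03, 5.73 and 5.97 in wild type against 5.65, 5.88 and 5.82. The collagen receptor Gp6 differed by -1.45 ± 0.62 and the integrin genes Itgb3 and Itga2b by 1.30 and 0.38, or by -0.74, 0.25 and -0.30 without wild-type replicate 3. Over all genes 52.0% had lower means, and the median differences in the lower 2 quartiles of signal were -0.30 and -0.38. In those quartiles lay 11 stromal, 8 stem cell and 8 platelet lineage genes. None of these markers passed the fit over all genes, and the part of such cells in the differences of Robo4, Sema3g and Esam was not tested.

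**Figure D4:**
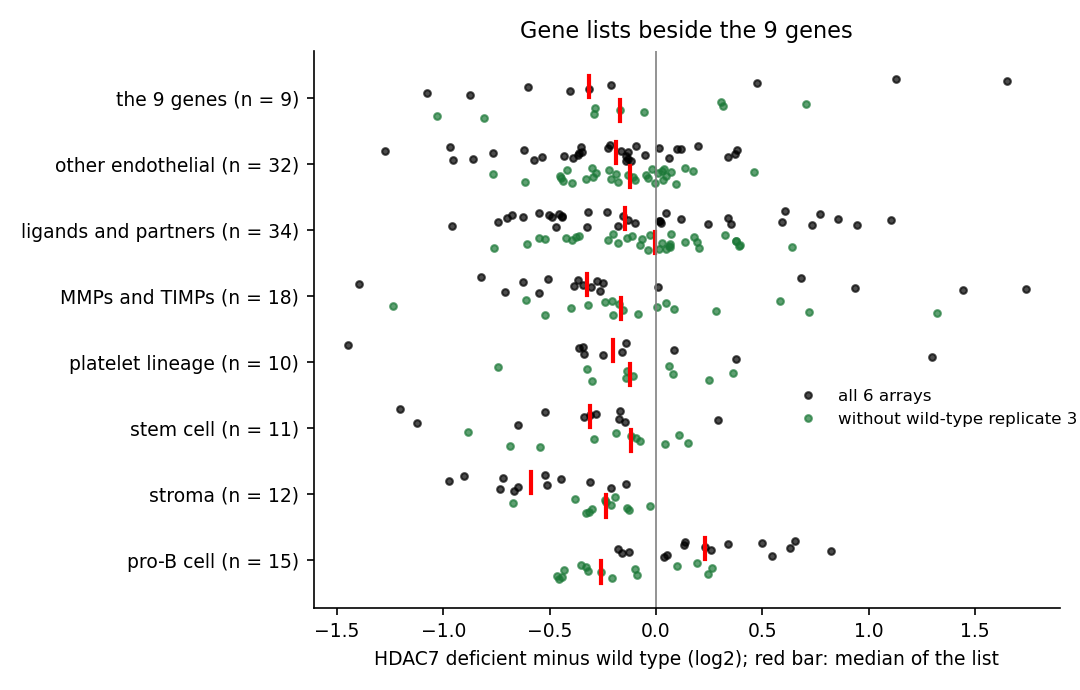
HDAC7 deficient minus wild type (log2, horizontal), with a point for each gene of a list with all 6 arrays (black) and without wild-type replicate 3 (green), and the list's median in red. Stromal genes move from a median of -0.59 to -0.24 and pro-B cell genes from 0.23 to -0.26 when that array is left out.

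The profiles over the 6 arrays gave each gene's closest matches among 15476 other genes, by root mean square difference after each gene was centred on its own mean. Closest to Robo4 were Serpina3n (0.068), the olfactory receptor gene Olfr70 (0.069), Ccdc42os (0.072) and Fzd10os (0.078). Sema3g was most like Nfasc (0.089), Serpina1b (0.090), Slc39a2 (0.093) and Ift43 (0.113), none of them among the endothelial genes listed, and Robo4 and Sema3g differed from each other by 0.170. Pecam1 was most like Pura (0.053), Rnf114 (0.054), Fuca1 (0.056) and Scpep1 (0.061), which were likewise low on wild-type replicate 3 (6.40, 7.14, 6.69 and 6.83). Mmp10 was most like Cyp7b1 (0.028), Ppp4r4 (0.029), Pde1a (0.030) and Plet1os (0.031). In each of those 4, as in Mmp10, wild-type replicate 3 was the highest array. All these matches were picked for a like profile, so sharing the place of wild-type replicate 3 follows from the choice.

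Neighbouring protein-coding genes are given for comparison, without a test. Robo3, next to Robo4, differed by -0.26 (without overlap) and Hepacam, on its other side, by -0.10. Tnnc1 and Phf7, on either side of Sema3g, differed by -0.54 and 0.33, or by -0.46 and 0.09 without wild-type replicate 3, and their groups overlapped. Around Pecam1, Tex2 differed by 0.98 and Milr1 by 1.51, both without overlap. Without wild-type replicate 3 these were 0.30 and 0.37, beside 0.30 for Pecam1.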

How the data were processed

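Log2 expression values, as the authors deposited them, were used for each probe set of 3 wild-type and 3 HDAC7-deficient samples on Affymetrix perfect-match arrays. The log2 scale was read from the values; the normalization software is not given in the sources used here. RNA was amplified before labelling, per the labels' protocols. Of 45141 probe sets 104 controls were set aside; 28898 of the other 45037 carried 1 symbol in the platform annotation, 551 several and 15588 none, and 28689 were matched by Entrez number to RefSeq names (assembly GRCm38.p6). The test was limma 3.58.1, run under R 4.3.3 (group means, moderated variances with an intensity trend, two-sided, Benjamini-Hochberg over all 17097 genes, threshold 0.05, no filter). It was also run on simulated data with independent noise for each gene. Those data held no array-wide shift like that of wild-type replicate 3, so they do not show how the test behaves under it. With 3 arrays a group, the smallest p of an exact permutation test is 0.1, and none was used. The number of arrays limits the precision. The labels say biological triplicates.

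The members, the gene lists and the alternatives were chosen with earlier results of these data known. From each list up to 4 genes with the smallest unadjusted p were named, with up to 3 of highest mean for marker lists, and the 4 genes of closest profile for 4 members, leaving out clone symbols. Not every gene this rule allows is printed. Genes given outside it (Cldn5, Tie1, Plvap, Icam2, Egfl7, Flt1) were chosen after their values were seen. Alternatives were leaving out each array, blocks, other normalizations, other probe set choices, other variance models and a filter. Plots were made using matplotlib 3.10.9 (Python 3.11.15).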

Additional observations from a re-analysis of the deposited data

How the results depend on the processing

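The directions of Robo4, Sema3g, Esam, Pecam1, Cdh5, Tek, Eng and Mmp10 were the same in all 15 alternatives run for each. That of Kdr was the same in 13. Not all of these could turn a direction. The replicate block returns the main difference, as do the other probe set choices for genes with 1 probe set. The spike-in block without wild-type replicate 3 gives the same value as the low spike-in set alone, -0.69 for Kdr in both. Robo4 ranged from -1.01 to -0.63 and Sema3g from -1.25 to -0.90. The median difference of the 9 genes was -0.44 with the spike-in set as a block, -0.14 after quantile normalization, -0.18 after median centring, -0.67 within the high spike-in set, and -0.51 to -0.17 with 1 array left out. The median of the other endothelial genes was -0.023, -0.053 and -0.43 under quantile normalization, median centring and within the high spike-in set, and -0.27 to -0.12 with 1 array left out. Leaving out 1 array gave 3 to 5 members lower and 1 to 3 higher without overlap (5 and 2 without wild-type replicate 2, 3 higher without HDAC7-deficient replicate 1), and 3116 to 5942 and 1700 to 4528 of all genes (5942 lower and 4528 higher without wild-type replicate 2, 5237 and 2685 without HDAC7-deficient replicate 3). A group of 2 overlaps less readily by construction. Median centring gave 0 members higher without overlap, beside 1983 of all genes. The values as deposited gave 1, Pecam1, whose groups were 0.01 apart, beside 1616 of all genes. Averaging the probe sets of a gene gave 4 members lower without overlap, as did taking the probe set of highest variance. Beside these stood 2878 and 3001 of all genes. No overlap count was made for fits with a block.

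Replicate numbers were not taken to pair the arrays, although these values do not settle whether they do. Correlations of deviations were 0.0964, 0.21 and 0.48, all positive, the first just under the limit of 0.1. The replicate block called 1 gene, Hspa1b. The spike-in set as a block without wild-type replicate 3 called 4 genes, Fos, Fosb, H1f2 and Jun. None of these 5 genes is a member; their names were chosen after their values were seen. Limma's array weights called 8449 genes (gene by gene) and 10932 (REML, which did not converge), giving wild-type replicate 1 a weight of 8.68 and wild-type replicate 3 one of 0.0716 in the first. Such weights rest the wild-type level mostly on 1 array. Other settings, each array left out included, called 0 genes.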
